A study of Mus musculus with 2 samples.

Results

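Granule genes of neutrophils and basophils were read out in lung of mouse embryos at embryonic day 14.5. The 10 genes S100a8, S100a9, Ngp, Camp, Ltf, Elane, Mpo, Prtn3, Mcpt8 and Prss34 were taken by symbol and matched by gene identifier to a GENCODE mouse annotation, and all 10 were found among the 43346 mouse genes of the deposited tables. They were selected on their expected counts, because granule genes differed between the 2 libraries of the study, so the differences below describe the choice and carry no test. The study holds 1 group of 2 libraries, labelled biological replicates 1 and 2, of total RNA from lung of unmodified embryos of strain B6NCrl, with no treatment named. The labels call each sample mixed in sex and also the lung of a single pup, so how many animals gave each library is unclear, and both libraries carry the same donor label. Replicate 1 was collected on day 15 of July and replicate 2 on day 17, so collection day and library cannot be told apart. With 1 library on each side of every comparison, no spread between replicates can be subtracted from a difference, and all intervals given cover counting error only.

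Granulocytes are white blood cells packed with protein granules that are filled in order as the cell matures. Neutrophil precursors first make the primary (azurophil) granule proteins, among them myeloperoxidase and the serine proteases neutrophil elastase and proteinase 3. The genes of the secondary (specific) granules, which hold lactoferrin and antimicrobial peptides, are switched on later, as the primary granule genes are switched off. Calprotectin, the pair of S100 proteins S100A8 and S100A9, is abundant in the cytosol of maturing and mature neutrophils. Basophils are a rarer granulocyte whose granules hold their own serine proteases. In a mid-gestation embryo these cells arise mainly in the liver and reach other organs through the blood.

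Expected counts are estimated reads per gene. Their total was 33601136 for replicate 1, with 4.94% on spike-in RNA, and 34535168 for replicate 2, with 3.96% on spike-in RNA. Where a gene has 0 reads, up to 3 reads remain possible, which is 0.0939 CPM (counts scaled to the library's mouse gene reads) for replicate 1 and 0.0905 CPM for replicate 2. The 8 lung epithelium markers, with the surfactant gene Sftpc and the adhesion gene Epcam among them, summed to 3140 TPM (an abundance unit that divides by transcript length) in replicate 1 and 3204 in replicate 2, and none was 2-fold apart. The libraries stood apart in other tissue markers. The 12 heart muscle genes summed to 727 TPM in replicate 1 and 133 in replicate 2, and 11 of them were at least 2-fold lower in replicate 2. The summed level of 4 Y-linked genes was 113 TPM for replicate 1 and 0.05 TPM for replicate 2, which goes against a mixture of both sexes in replicate 2. The 8 liver genes summed to 4.59 and 10.6 TPM. The part of any of these in the granule gene differences was not tested, and with 2 libraries no value below can be given without the library that stands apart.

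The DNA just upstream of 5 of the genes is shown as examples. S100a9, Ngp and Ltf differed several-fold between the libraries, Prtn3 had similar reads in both, and Elane is a primary granule gene with too few reads to compare. S100a8, Camp and Mcpt8, which also differed several-fold, are not shown, and neither are Mpo and Prss34. Each stretch lies within 250 bases before the RefSeq start on GRCm38.p6, is read 5′ to 3′ on the gene's strand, and leaves out bases that GENCODE M21 places in exons. Capitals mark matches to short motifs of blood cell transcription factors.
S100a9, chr3:90695722-90695971, minus strand: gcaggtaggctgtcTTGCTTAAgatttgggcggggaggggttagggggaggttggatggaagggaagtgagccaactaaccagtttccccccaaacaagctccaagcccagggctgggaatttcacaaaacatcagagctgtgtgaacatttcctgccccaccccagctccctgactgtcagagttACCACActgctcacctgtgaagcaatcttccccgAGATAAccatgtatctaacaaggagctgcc
Ngp, chr9:110419558-110419746, plus strand: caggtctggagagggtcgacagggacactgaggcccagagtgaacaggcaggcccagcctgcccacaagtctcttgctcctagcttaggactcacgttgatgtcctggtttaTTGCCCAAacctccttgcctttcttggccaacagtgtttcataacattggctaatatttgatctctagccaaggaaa
Ltf, chr9:111019042-111019270, plus strand: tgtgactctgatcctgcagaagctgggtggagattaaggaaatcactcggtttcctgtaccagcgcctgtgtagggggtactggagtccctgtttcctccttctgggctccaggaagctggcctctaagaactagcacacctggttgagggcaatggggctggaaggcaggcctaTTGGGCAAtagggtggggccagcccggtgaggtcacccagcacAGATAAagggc
Elane, chr10:79886062-79886246, plus strand: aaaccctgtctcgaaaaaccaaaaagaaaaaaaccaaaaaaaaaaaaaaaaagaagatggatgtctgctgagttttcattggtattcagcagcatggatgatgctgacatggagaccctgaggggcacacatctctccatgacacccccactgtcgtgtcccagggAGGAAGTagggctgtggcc
Prtn3, chr10:79879417-79879613, plus strand: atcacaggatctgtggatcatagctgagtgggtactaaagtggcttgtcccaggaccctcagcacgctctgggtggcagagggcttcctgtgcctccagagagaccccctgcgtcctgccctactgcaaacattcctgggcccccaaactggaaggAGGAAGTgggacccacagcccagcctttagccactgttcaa
The Prtn3 stretch lies upstream of the protein-coding transcript Prtn3-201 and inside the wider gene, since the non-coding Prtn3-202 starts further upstream.

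Both strands of all 10 windows of 250 bases were searched for 5 motifs. The C/EBP letters TTGCNNAA, or TTNNGCAA on the other strand, were found in S100a9 at position -236 from the start, in Ngp at -138 and at -11 (in an exon and not shown), and in Ltf at -75, and 9.57% of 32817 promoter windows of that length hold such a match. C/EBP proteins are leucine zipper factors, of which C/EBP epsilon is known for secondary granule genes. The letters AGGAAGT, on either strand, which the ETS factor PU.1 binds, were found in all 3 primary granule genes, Elane at -84, Mpo at -223 and Prtn3 at -94, and in S100a8 at -172, against 7.69% of windows. The RUNX letters TGTGGT, on either strand, were found in S100a9 and at 2 positions in Mcpt8, against 14.0% of windows. The GATA letters AGATAA, on either strand, were found in S100a9 at -30, Ltf at -32 and Prss34 at -31, against 9.99%. The TATA box letters TATAAA, on either strand, were found in S100a8 alone among the 10, at -30 (in an exon), against 12.4%. Camp held none of the 5 motifs, and 161 of the 250 bases of its window lay in exons. S100a8, Camp and Mcpt8, also several-fold lower in replicate 2, held no C/EBP letters, so the matches did not follow the direction of the difference. None of the matches overlapped another motif, and a match describes letters only.

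The calprotectin subunits and the secondary granule genes had far fewer reads in replicate 2. The primary granule genes had similar numbers in sum in both libraries, and that sum came mostly from Prtn3. Summed over S100a8, S100a9, Ngp, Camp and Ltf, replicate 1 held 448 reads and replicate 2 held 65, a 7.15-fold lower level in replicate 2 with an interval of 5.54 to 9.49. Summed over Elane, Mpo and Prtn3, replicate 1 held 63 reads and replicate 2 held 70, a log2 ratio of 0.09 with an interval of -0.42 to 0.60. Of these, Prtn3 held 47.16 and 47.44 reads, mainly on a retained-intron transcript. Mpo held 12 and 20, and Elane held 4 and 3, too few to compare. The 5 genes made up 79.7% of all reads on the 10 genes in replicate 1 and 42.8% in replicate 2, and the 3 primary granule genes 11.2% and 46.1%. In bulk tissue, fewer cells of a type and less RNA per cell cannot be told apart.

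**Figure D1:**
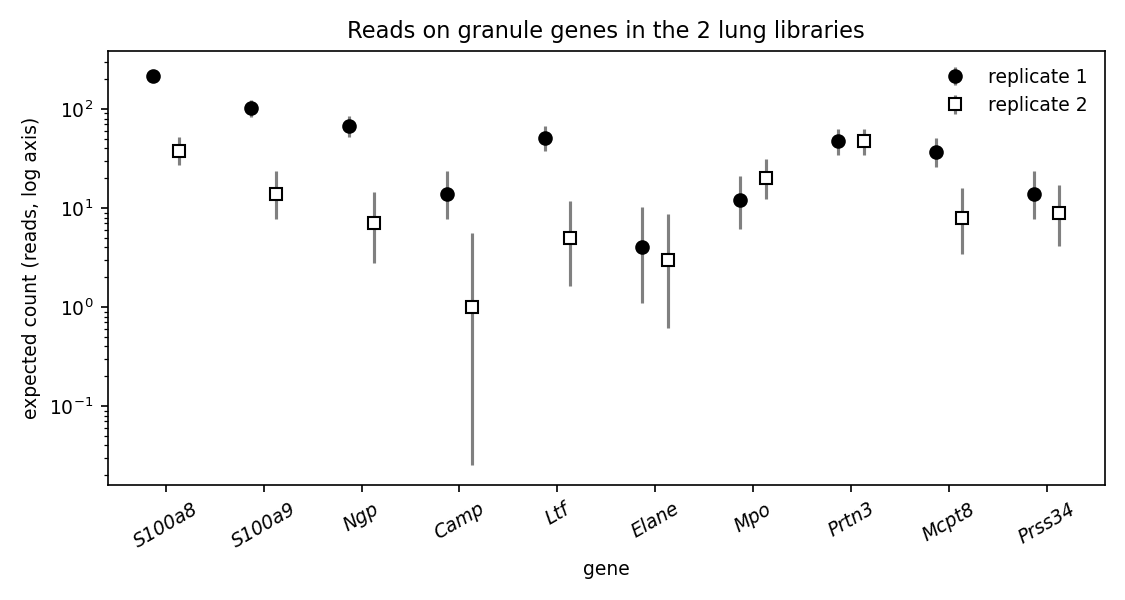
Expected counts (reads, log axis) of the 10 granule genes in replicate 1 (filled circles) and replicate 2 (open squares), with exact 95% Poisson intervals as bars. The intervals of the libraries lie apart for S100a8, S100a9, Ngp, Camp, Ltf and Mcpt8 and overlap for Elane, Mpo, Prtn3 and Prss34.

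S100a8 (ENSMUSG00000056054.8, chr3:90668978-90670035, plus strand) encodes the smaller calprotectin subunit, a calcium- and zinc-binding protein. It had 214 reads in replicate 1, with an exact Poisson interval of 186 to 245, and 38 in replicate 2, with an interval of 26.9 to 52.2. The level of S100a8 reached 32.75 TPM for replicate 1, at percentile 79.2 of protein-coding genes, and 5.79 TPM for replicate 2, at percentile 53.0. The counts were thus 5.82-fold lower in replicate 2 after scaling, with an interval of 4.15 to 8.54. S100a9 (ENSMUSG00000056071.8, chr3:90692632-90695721, minus strand) encodes its partner and lies beside it in the S100 cluster. It had 102 reads in replicate 1 (83.2 to 124) and 14 in replicate 2 (7.65 to 23.5), or 11.01 and 1.51 TPM. Both subunits were high in replicate 1 and low in replicate 2, and S100a9 was 7.38-fold lower there (4.33 to 14.4). The ratio of S100a8 to S100a9 in TPM was 2.97 in replicate 1 and 3.83 in replicate 2.

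The 2 annotated protein-coding transcripts of S100a9 end at the same base and start a few bases apart. S100a9-201 took 67.94 reads in replicate 1 and 14 in replicate 2, and S100a9-202 took 34.06 and 0. How reads were split between transcripts that share nearly all of their bases rests on the deposited estimate. S100a8 was counted on a single transcript in both libraries.

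The secondary granule genes had the largest fold in sum. Its interval, given below, overlapped that of the calprotectin subunits, which were 6.30-fold lower in sum in replicate 2 (4.72 to 8.68). Ngp (ENSMUSG00000032484.7, chr9:110419747-110423012, plus strand) encodes neutrophilic granule protein, a cathelin-related protein of mouse neutrophils. It had 67 reads in replicate 1 (51.9 to 85.1) and 7 in replicate 2 (2.81 to 14.4), or 2.83 and 0.29 TPM, and was 9.40-fold lower in replicate 2 (4.59 to 25.8). Ltf (ENSMUSG00000032496.3, chr9:111019271-111042767, plus strand) encodes lactoferrin, the iron-binding protein of these granules, which some epithelia also secrete. It had 51 reads in replicate 1 (38.0 to 67.1) and 5 in replicate 2 (1.62 to 11.7), or 0.87 and 0.08 TPM, and was 9.78-fold lower in replicate 2 (4.28 to 34.2). Camp (ENSMUSG00000038357.9, chr9:109847379-109849617, minus strand) encodes cathelicidin, the precursor of the mouse antimicrobial peptide CRAMP. It had 14 reads in replicate 1 (7.65 to 23.5) and 1 in replicate 2 (0.0253 to 5.57), or 1.26 and 0.09 TPM. For Camp the depth gives only a loose ratio, 10.1-fold lower with an interval of 2.22 to 618. All 3 genes were thus low in replicate 2, with 13 reads between them against 132, a 10.2-fold lower sum (5.99 to 20.4). All 3 lie on chromosome 9, at separate places, and each was counted on a single transcript.

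The counting intervals of the proportions among the 5 genes overlapped between the libraries while their sum differed. The genes were selected on this contrast, so their shared direction describes the choice. As a share of the reads on the 5, S100a8 made up 47.8% in replicate 1 (exact binomial interval 43.1 to 52.5) and 58.5% in replicate 2 (45.6 to 70.6). S100a9 made up 22.8% (19.0 to 26.9) and 21.5% (12.3 to 33.5). Ngp made up 15.0% and 10.8%, Ltf 11.4% and 7.69%, and Camp 3.13% and 1.54%. For each of the 5, the intervals of the 2 libraries overlapped. With 65 reads in replicate 2 these intervals are wide, so equal proportions are not shown. The ratio of Ngp to Ltf in TPM was 3.25 in replicate 1 and 3.63 in replicate 2.

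In sum, the primary granule genes did not follow the secondary granule genes. Prtn3 (ENSMUSG00000057729.8, chr10:79874476-79883174, plus strand), which encodes proteinase 3, had 47.16 reads in replicate 1 and 47.44 in replicate 2, each with an interval of 34.5 to 62.5, or 2.90 and 2.86 TPM. Its log2 ratio was -0.06 (-0.68 to 0.55). Mpo (ENSMUSG00000009350.9, chr11:87793581-87804413, plus strand) encodes myeloperoxidase, which makes hypochlorous acid from hydrogen peroxide. It had 12 reads in replicate 1 (6.20 to 20.96) and 20 in replicate 2 (12.2 to 30.9), or 0.30 and 0.70 TPM, with a log2 ratio of counts of 0.65 (-0.43 to 1.84). Elane (ENSMUSG00000020125.6, chr10:79886247-79888215, plus strand), the gene of neutrophil elastase and a near neighbour of Prtn3, had 4 reads in replicate 1 (1.09 to 10.2) and 3 in replicate 2 (0.619 to 8.77), or 0.22 and 0.16 TPM. At these counts an Elane ratio as far apart as -3.25 or 2.09 on the log2 scale lies within the interval, so a difference was not detectable at this depth. In the libraries' values, Prtn3 was level, Mpo had more reads in replicate 2 and Elane was near the floor in both. The ratio of Ngp to Prtn3 in TPM was 0.976 in replicate 1 and 0.101 in replicate 2.

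Most Prtn3 reads did not fall on its protein-coding transcript. The retained-intron transcript Prtn3-204 took 29.15 reads in replicate 1 and 25.2 in replicate 2, or 65.56% and 57.28% of the gene's TPM. The processed transcript Prtn3-202 took 10.76 and 12.6 reads, and the protein-coding Prtn3-201 took 7.25 and 9.64. Prtn3-202 begins inside Plppr3, a protein-coding gene on the opposite strand that had 1345 and 1620 reads, and 3.62% of the 100-base words of Prtn3 transcripts also occur in Plppr3 on one strand or the other. The sources used here do not say whether counting used strand, so reads of the pair cannot be told apart where they overlap. Without Prtn3, the primary granule pair Elane and Mpo held 16 reads in replicate 1 and 23 in replicate 2, a log2 ratio of 0.45 (-0.52 to 1.48). Mpo reads fell mainly on the protein-coding Mpo-203, with 10.94 and 14.94 reads. The nonsense-mediated decay transcript Mpo-202 took 0 and 5.06 reads, and because that transcript is short, the effective length of Mpo was 1791 in replicate 1 and 1275 in replicate 2, which widens its difference in TPM beyond that in reads. The antisense Gm11505, which shares 4.79% of Mpo's 100-base words, had 0 reads in both libraries, and the other 8 granule genes shared no such word with another gene.

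**Figure D2:**
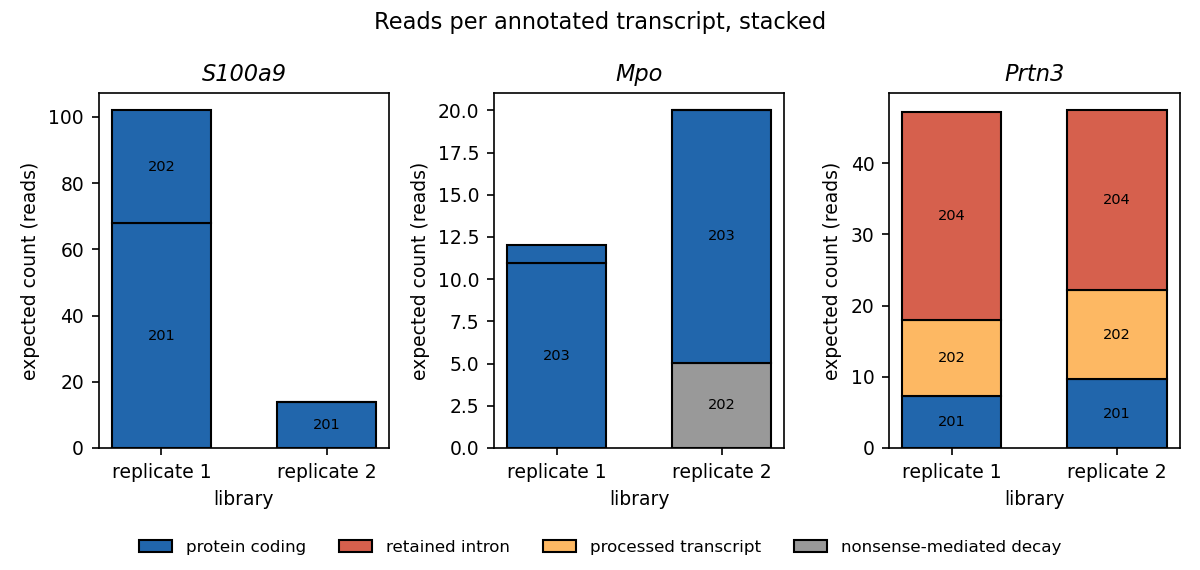
Expected counts (reads) per annotated transcript, stacked for each library, for the 3 granule genes with reads on more than 1 transcript. The color gives the transcript type: S100a9 and most Mpo reads lay on protein-coding transcripts, while Prtn3 reads lay mainly on the retained-intron Prtn3-204 in both libraries.

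The basophil proteases lay between these groups. Mcpt8 (ENSMUSG00000022157.7, chr14:56082166-56085273, minus strand) encodes mast cell protease 8, a granzyme-like protease that marks basophils in mice despite its name. It had 37 reads in replicate 1 (26.1 to 51.0) and 8 in replicate 2 (3.45 to 15.8), or 2.19 and 0.47 TPM, and was 4.61-fold lower in replicate 2 (2.21 to 12.0). Prss34 (ENSMUSG00000056399.1, chr17:25298394-25300165, plus strand) encodes mast cell protease 11, a tryptase of mouse basophils. It had 14 reads in replicate 1 (7.65 to 23.5) and 9 in replicate 2 (4.12 to 17.1), or 0.56 and 0.36 TPM, a log2 ratio of -0.67 (-2.09 to 0.61). Mcpt8 was high in replicate 1 and low in replicate 2, whereas the counting intervals of Prss34 overlapped. Together the pair held 51 and 17 reads, 3.07-fold lower in replicate 2 (1.78 to 5.79).

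**Figure D3:**
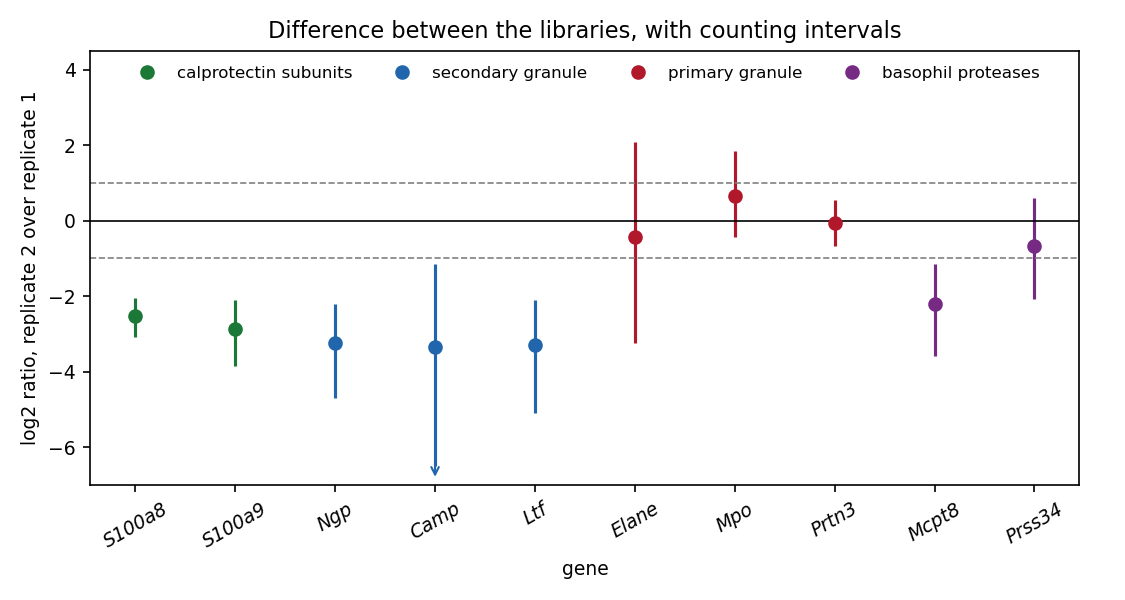
Log2 ratio of scaled counts, replicate 2 over replicate 1, for each granule gene with its exact 95% counting interval, colored by role; dashed lines mark 2-fold. The upper bounds of the 5 calprotectin and secondary granule genes and of Mcpt8 lie below -1, the intervals of the 3 primary granule genes and Prss34 include 0, and the arrow marks the Camp interval, which runs to -9.27.

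The order of levels, in TPM, changed with the library. In replicate 1 it ran from S100a8 and S100a9 through Prtn3, Ngp, Mcpt8, Camp, Ltf, Prss34 and Mpo to Elane. In replicate 2, S100a8 was still highest at 5.79 TPM, but Prtn3 followed at 2.86, ahead of S100a9 at 1.51 and Mpo at 0.70, and Ltf and Camp were lowest at 0.08 and 0.09. Over both libraries the mean level was 19.3 ± 19.1 TPM for S100a8 (SD, n = 2 for all), 6.26 ± 6.72 for S100a9, 2.88 ± 0.0283 for Prtn3, 1.56 ± 1.80 for Ngp and 1.33 ± 1.22 for Mcpt8. The other 5 had means between 0.19 ± 0.042 TPM for Elane and 0.675 ± 0.827 for Camp. In the order of means, Elane lay below its neighbour Prss34 (0.46 ± 0.141 TPM) by more than the spread of either, and no other neighbours did. Elane had only 4 and 3 reads, and the counting intervals of the reads of Elane and Prss34 overlapped in both libraries, so their order is not settled.

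The number of granule genes past 2-fold is set beside that of all genes. The low-value filter, a mean of 1 TPM or more, was passed by 5 of the 10 (S100a8, S100a9, Ngp, Prtn3 and Mcpt8), of which Ngp and Mcpt8 passed only through replicate 1. Of these 5, 4 were at least 2-fold lower in replicate 2 and none was 2-fold higher, where 1.47% of the 14870 genes that passed were at least 2-fold lower. Without the filter 6 of 10 were at least 2-fold lower and the same 6 at least 4-fold lower, of which Mcpt8 lay inside 4-fold with scaling on the spike-ins, at a log2 ratio of -1.86. Among the 3924 protein-coding genes whose summed count lay between 7 and 252, the range of the granule genes, 13.1% were at least 2-fold lower and 4.28% at least 4-fold lower. Because the genes were chosen on this contrast, nothing is read from these counts. The median log2 ratio was -2.37 over the 10 genes and -0.06 over the genes of that count range. Of the 14870 genes, those 2-fold apart were higher in replicate 2 in 43.3% of cases with TMM scaling and in 67.6% with scaling on the spike-ins, which moves every log2 ratio up by 0.34.

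**Figure D4:**
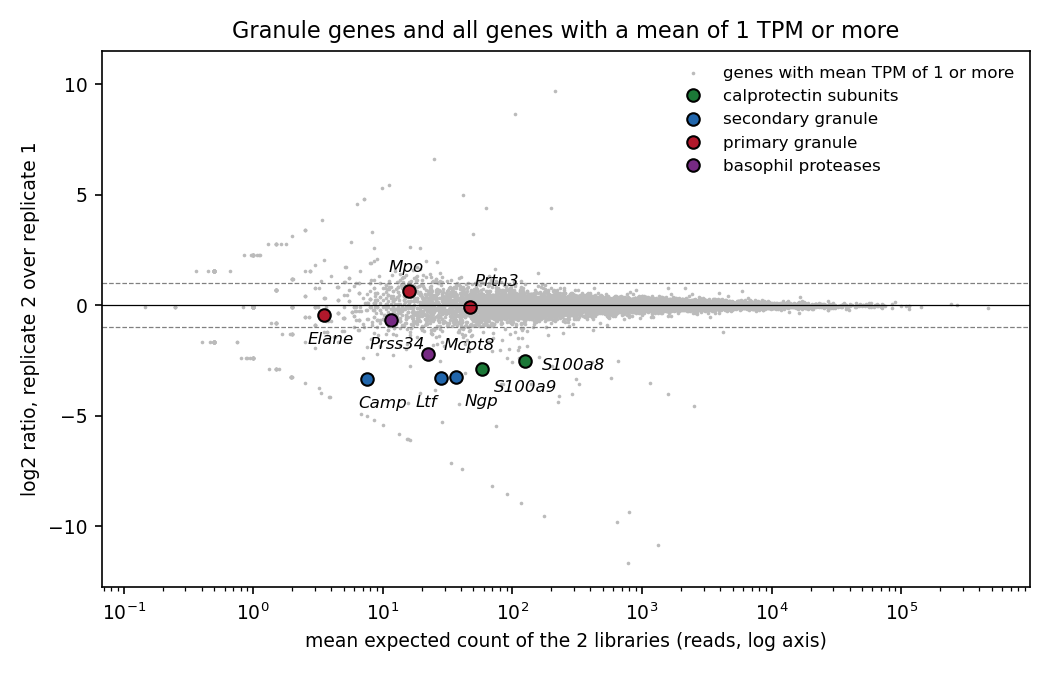
Log2 ratio of scaled counts, replicate 2 over replicate 1, against the mean expected count (reads, log axis), for the genes with a mean of 1 TPM or more (grey) and the 10 granule genes (colored by role, including those under that mean). Dashed lines mark 2-fold, and the calprotectin and secondary granule genes and Mcpt8 lie under the lower line while the primary granule genes and Prss34 lie between the lines.

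Genes next to the granule genes on the chromosome that had enough reads showed no such gap, as was true of most genes. Of the 122 protein-coding genes within 200 kb of any of the 10, 68 had a mean of at least 20 reads, and none of these was 2-fold lower or higher. Among all genes with a mean of 1 TPM or more, 1.47% were at least 2-fold lower, so none of 68 lies near that share. Neighbours with fewer reads were not compared, although Camp, Elane, Mpo and Prss34 also lie under that mean of reads. The log2 ratios of the 68 neighbours compared ran from -0.95, for the mast cell tryptase Tpsb2 near Prss34, to 0.38, with a median of 0.05. Around S100a8, 9 such neighbours lay between -0.32 and 0.31, other S100 genes among them. S100a6, a calcium-binding protein of many tissues, had 665 and 569 reads, and S100a16 had 2834 and 3127, where S100a8 had 214 and 38.

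In the wider secondary and tertiary granule list, some genes were lower in replicate 2 and others had similar reads in both libraries. Of its 11 genes, 8 had a mean of at least 10 reads, 5 of these were at least 2-fold lower in replicate 2 and none 2-fold higher, with a median log2 ratio of -1.28, where 13.1% of protein-coding genes in the count range of the granule genes were 2-fold lower. Of the 5, Ngp and Ltf were selected on this contrast. Leaving out the genes described above, 3 of 6 were lower, with a median of -0.77: Lcn2, Mmp8 and Hp. Hp, which encodes the hemoglobin-binding haptoglobin and is also made in liver and lung, had 161 reads in replicate 1 and 81 in replicate 2 and was 2.07-fold lower (1.58 to 2.75). Lcn2, the iron-siderophore binding lipocalin, had 23 and 0 reads, at least 8.01-fold lower with 3 reads set in replicate 2, and its exact counting interval, which also covers the error of the 23 reads, starts at 6.003-fold. Mmp8, neutrophil collagenase, had 28 and 10 reads and was 2.83-fold lower (1.38 to 6.75). Lcn2 and Mmp8 lay under the count set for naming and were named after their values were seen, and Lcn2 reached a mean of 10 reads only through replicate 1. Under that mean, Cd177 had 2 and 6 reads and Chil3 had 5 and 0, too few to compare. Against these, Padi4, the enzyme that citrullinates histones in neutrophils, had 70 and 69 reads, Olfm4, a protein of a subset of neutrophils, had 34 and 25, and Mmp9, the gelatinase of tertiary granules, had 11 and 10.

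No gene of the early granule program or of the granulocyte transcription factors with enough reads was 2-fold apart, which lies near the share of all genes. At least 2-fold lower were 1.47% of genes with a mean of 1 TPM or more. That share was 13.1% among protein-coding genes in the count range of the granule genes. Of the 8 primary granule list genes, 4 had a mean of at least 10 reads, with a median log2 ratio of -0.05. Its highest genes were not restricted to neutrophils: Ctsc, the cathepsin that activates granule proteases, had 3857 and 3929 reads, and Srgn, the core protein of granule proteoglycan, had 576 and 510. The others with enough reads were Prtn3, mainly on a retained-intron transcript, and Mpo, with 12 and 20 reads, so the early program rests on few reads. The primary granule markers Ctsg and Ms4a3 were near 0, with 0 and 1 reads and 2 and 1 reads. Of 12 granulocyte transcription factors, 10 had a mean of at least 10 reads, and their median was 0.04. Cebpb had 1807 and 1965 reads, Cebpd 814 and 869, and the basophil and stem cell factor Gata2 had 536 and 506. Cebpe and Gfi1, known for the switch to secondary granule genes, had 0 and 1 reads and 6 and 3 reads, too few to compare.

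Markers of mature neutrophils were mixed and mostly scarce. Only 5 of the 18 listed genes had a mean of at least 10 reads: S100a8, S100a9, the receptor gene Csf3r with 107 and 113 reads, Anxa1 with 2919 and 2425, and Mmp25 with 13 and 58. Mmp25, a membrane metalloproteinase, was 4.15-fold higher in replicate 2 (2.31 to 8.50), the opposite direction to calprotectin, and Anxa1 is also expressed by epithelium. The neutrophil markers Ly6g and Cxcr2 had 0 and 1 reads and 2 and 3 reads, and Il1b was at 0 in both. Retnlg, a resistin-like gene of mature neutrophils, had 8 reads in replicate 1 and 0 in replicate 2. The formyl peptide receptor genes Fpr2 and Fpr1 had 16 and 3 reads and 10 and 3 reads. Retnlg, Fpr1 and Fpr2 were named after their values were seen.

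The basophil list gave 2 of 9 genes at least 2-fold lower in replicate 2, with a median log2 ratio of -0.43. Among them was Mcpt8, which was selected on this contrast, and without the granule genes described above 1 of 7 was lower, a share near the 13.1% of protein-coding genes in the same count range. The other was Cd200r3, an activating receptor of basophils and mast cells, with 20 and 6 reads (3.29-fold lower, 1.35 to 10.6), named after its values were seen. Cd200r3 reached a mean of 10 reads only through replicate 1, where it was higher, so nothing is read from its place in these counts. The defining basophil and mast cell receptor genes Fcer1a and Ms4a2 had 0 reads in both libraries and 0 and 5 reads. Mast cell genes were present in both libraries, with none of 5 genes 2-fold apart and a median of -0.43. Cma1, a mast cell chymase, had 64 and 78 reads, Cpa3, a carboxypeptidase of mast cells and basophils, had 105 and 81, and Kit, which many cells of the lung express, had 3261 and 3762. No eosinophil gene of 10 reached a mean of 10 reads, and that list summed to 0.97 and 0.98 TPM.

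Few genes of other blood and tissue cells were 2-fold apart, outside heart muscle and liver genes. None of 15 macrophage and monocyte genes was 2-fold apart, with a median of -0.14, and C1qa had 487 and 445 reads. The 15 genes of the phagocyte oxidase and adhesion list had a median of -0.36. The integrin chain gene Itgam, carried by neutrophils and macrophages, had 110 and 61 reads, and its partner Itgb2 had 153 and 98. Of 9 erythroid genes 1, Rhag, was 2-fold higher and none lower, with a median of 0.38. Of 8 platelet genes 1, Gp6, was 2-fold higher and none lower, with a median of 0.20. Rhag, with 9 and 33 reads, and Gp6, with 8 and 21, had enough reads only through replicate 2, so nothing is read from them. Among the 3924 protein-coding genes in the count range of the granule genes, 325 were at least 2-fold higher and 514 at least 2-fold lower. Among genes with a mean of 1 TPM or more, 1.12% were at least 2-fold higher and 1.47% at least 2-fold lower. Alas2, the heme synthesis enzyme of red cells, had 1827 and 1891 reads, and Pf4, a platelet chemokine, had 490 and 517. The 12 heart muscle genes had a median of -3.78, and Myl7, the atrial myosin light chain, had 2955 and 190 reads, 16.2-fold lower in replicate 2. Of 4 liver genes with enough reads, 3 were at least 2-fold higher in replicate 2, with a median of 1.16.

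**Figure D5:**
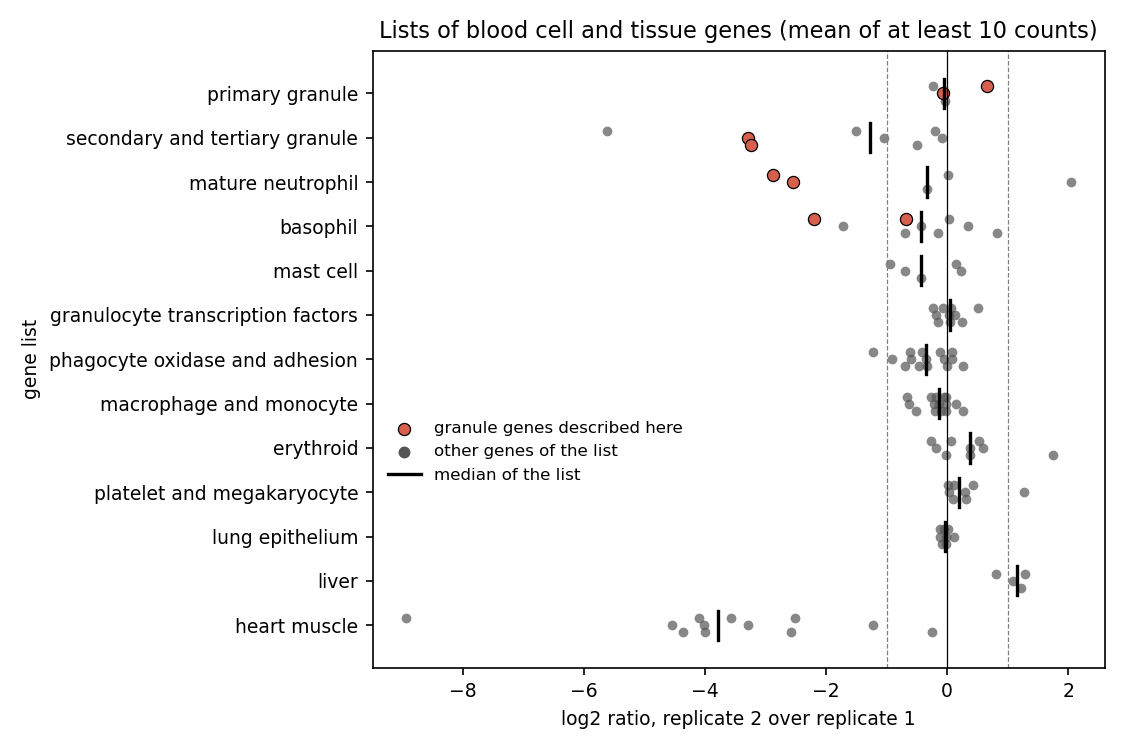
Log2 ratio of scaled counts, replicate 2 over replicate 1, of each gene with a mean of at least 10 reads, by list; bars mark list medians, dashed lines 2-fold, and red points the granule genes with enough reads. The secondary and tertiary granule list is centred at -1.28 and the heart muscle list at -3.78, and the primary granule list at -0.05; lists with under 2 such genes and the Y-linked genes are not drawn.

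The genes with the lowest ratios outside all lists were mostly striated muscle genes. Among protein-coding genes outside all lists with a mean of at least 50 reads, the 10 with the lowest log2 ratio, replicate 2 over replicate 1, included Gm14434, Sln, Casq2, Pgam2, Myl1, Ttn, Tnnc1, Fabp3 and Mybphl. Their log2 ratios ran from -8.19 for Gm14434, whose estimated reads are uncertain, to -2.63 for Mybphl, so some lay far beyond any granule gene, and the ranking rests on 2 libraries. Sln encodes a regulator of the muscle calcium pump, Ttn the sarcomere protein titin and Tnnc1 a troponin of heart and slow muscle. The range holds the log2 ratios of S100a9, Ngp, Ltf and Camp, from -3.34 to -2.88, and not those of S100a8 at -2.54 and Mcpt8 at -2.20. Ngp, Ltf and Camp themselves lay under the mean of 50 reads set for this ranking. These mostly muscle genes were ranked on the contrast that the granule genes were selected on, so their shared direction describes the choice. A part of the one set in the other was not tested.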

How the data were processed

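Total RNA libraries (10 ng input, size minimum 200 nt, Ambion mirVana extraction, per the labels) were taken from the deposited tables. The members and the gene lists were chosen with earlier results of these data known. The authors deposited, per the file headers, an expected count and TPM per gene and transcript, a posterior standard deviation of the count (used as a score of uncertainty), the percent of a gene's TPM on each transcript, and interval bounds of TPM, a signal that was not used. The deposited read-me files name mm10, GENCODE M4 and transcriptome alignments; aligner, quantification program and strand use: not given in the sources used here. Names and 1-based coordinates came from GENCODE M21 (same build; 42462 of 43346 mouse genes matched) and upstream sequence from RefSeq (GRCm38.p6; 10 of 10 granule genes matched). Of 172 list symbols, 171 matched.

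Expected counts were rounded to whole numbers, 0.5 was added and TMM factors from edgeR 4.0.16 (R 4.3.3), computed on genes with mean TPM of 1 or more, scaled the ratios. Counts carry exact Poisson intervals and ratios exact conditional binomial intervals (95%, scipy 1.17.1, checked on simulated counts). "Called" means past 2-fold. Named genes were the 10 granule genes, the 3 highest genes of each list, listed genes 2-fold apart with a mean of at least 20 counts, and the 10 most alike outside the lists, of which some are not reported here; other genes are said to have been named later or illustrate a count. Alternatives were DESeq2 1.42.0 size factors, the mouse gene sum, the spike-in sum, posterior mean counts, TPM plus 0.1, 2 counts added in place of 0.5, the filter on low values and, added after seeing the data, protein-coding transcripts alone.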

Additional observations from a re-analysis of the deposited data

How the results depend on the processing

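The 10 ratios were recomputed with DESeq2 size factors, the mouse gene sum, the spike-in sum, posterior mean counts, deposited TPM plus 0.1 and 2 added counts, and, for Prtn3 and Mpo, with protein-coding transcripts alone (chosen after seeing the data). All 62 alternative values lay within the counting interval of the value reported and only Prtn3, near 0, took either sign. The log2 ratio of S100a8 ranged from -2.54 to -2.20, that of Camp from -3.34 to -2.48, Ltf from -3.29 to -2.43, Mcpt8 from -2.20 to -1.86, Mpo from 0.25 to 1.00 and Prtn3 from -0.06 to 0.42. The share of all genes at least 2-fold lower in replicate 2 depended on the filter: 1.47% at a mean of 1 TPM, 0.346% at a mean of 5 TPM and 10.2% with at least 1 count in either library. The number of granule genes at least 2-fold lower was 4 with the filter and 6 without. Leaving out a replicate leaves no comparison and was not run. No paired analysis was possible because the study has 1 group. Depth limits Elane and Camp most, with 3 and 1 reads in replicate 2.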

Other observations

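Lymphocyte genes were scarce in both libraries. Of 12 listed genes, 1 had a mean of at least 10 reads: Cd79b, a B cell receptor chain, with 48 reads in replicate 1 and 69 in replicate 2, and the list summed to 2.53 and 4.20 TPM. Il7r, the interleukin 7 receptor gene of lymphoid cells, had 3 and 16 reads, a direction opposite to that of the secondary granule genes, and was named after its values were seen. Among liver genes, Afp, the main plasma protein of the fetus, had 72 and 161 reads and Apoa1, an apolipoprotein, had 13 and 34, both higher in replicate 2. The 4 listed liver genes with enough reads had log2 ratios from 0.81 to 1.29. Hp, which fetal and adult liver also express, was not in the liver list and was lower in replicate 2, with 161 and 81 reads.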
